A study of Mus musculus with 6 samples.

Results

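The 10 genes described here act in amino acid, polyamine and nucleotide metabolism: Asns, Slc25a13, Aass, Grhpr, Aldh1b1, Aco1, Azin1, Ahcyl2, Ggh and Impdh1. They were taken by name, 10 of the 53647 rows of the table of expression in D2.OR, a line of mouse breast cancer cells. The shSLX4IP group (n = 3) carried a lentiviral hairpin against SLX4IP, a binding partner of the nuclease scaffold SLX4 with a role in telomere maintenance, and the Scram group (n = 3) a scrambled hairpin. Cells of both groups had been selected in puromycin, were seeded at 31500 per cm2 on a cushion of Cultrex, a basement membrane extract, and stayed in 3D culture for 7 days with 10% serum and 5% Cultrex in the medium. The labels name neither clones nor a second hairpin. They use the word biological for the replicates without mention of separate cultures, so the p-values measure the spread between these samples, which may be technical.

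The comparison addresses how the messages of these enzymes and carriers differed between cells with the hairpin against SLX4IP and cells with the scrambled one. Each library held between 5433573 and 6693111 recovered reads, and per-library values are given in the order A, B, C of the column letters. The deposited scale was less even. In Scram A, 1 read counted as 1.46 on that scale, against 0.796 to 0.976 in the other libraries. Its deposited values summed to 8948118, against 5276405 to 5974334, and 8464 features were above 0, against 10548 to 11611. Values below are on the deposited scale unless given as reads. Row names and values could be matched to the gene models in 4 stretches, on chromosomes 4, 6, 15 and 18, in which abundant protein-coding genes run together. All 10 members lie inside those of chromosomes 4, 6 and 15. Slx4ip lies on chromosome 2, outside them, and was listed at 0 in all 6 libraries, so the labels could not be checked by the targeted gene. Scram A stood apart. In 353 nuclear genes of the stretches with a mean of at least 100, it was the highest library of its group by at least 2-fold in 54 and the lowest by as much in 16, against 0 to 3 genes either way for each other library. Results are therefore also given without Scram A. In bulk RNA, fewer cells that use a gene and less of its RNA per cell cannot be told apart.

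As background, growing cells make asparagine from aspartate and glutamine, and starved cells raise the enzyme of this step through the transcription factor ATF4. Polyamines are made from ornithine by ornithine decarboxylase, which antizyme sends to the proteasome and antizyme inhibitor spares. Guanine nucleotides are made from inosine monophosphate, folates carry the carbon units for purines and thymidylate, and S-adenosylhomocysteine, the product of methylation reactions, is cleared by its own hydrolase.

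Of the 10 members, 8 passed the filter of a mean of at least 10 and 2 were listed at 0. Azin1 fell to 0.231 times its Scram level, Ggh and Aco1 fell, Slc25a13 rose, and Asns, Grhpr, Ahcyl2 and Impdh1 did not pass the test. Thus 1 member was higher and 3 were lower in shSLX4IP at an adjusted p under 0.05 in limma, 50% of those tested. Among all 431 nuclear features tested in the stretches the share was 41.1% (18.3% higher and 22.7% lower), and among all 8127 features tested it was 23.0% (11.7% higher and 11.3% lower), so the members' count lies near the share of the stretches. On the deposited scale the groups did not overlap in the same 4 members, against 67.5% of the nuclear features of the stretches (29.5% higher and 38.1% lower) and 53.5% of all features (30.2% higher and 23.4% lower). The median log2 fold change was 0.10 over the 8 members, -0.15 over the nuclear features of the stretches and 0.25 over all features.

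**Figure D1:**
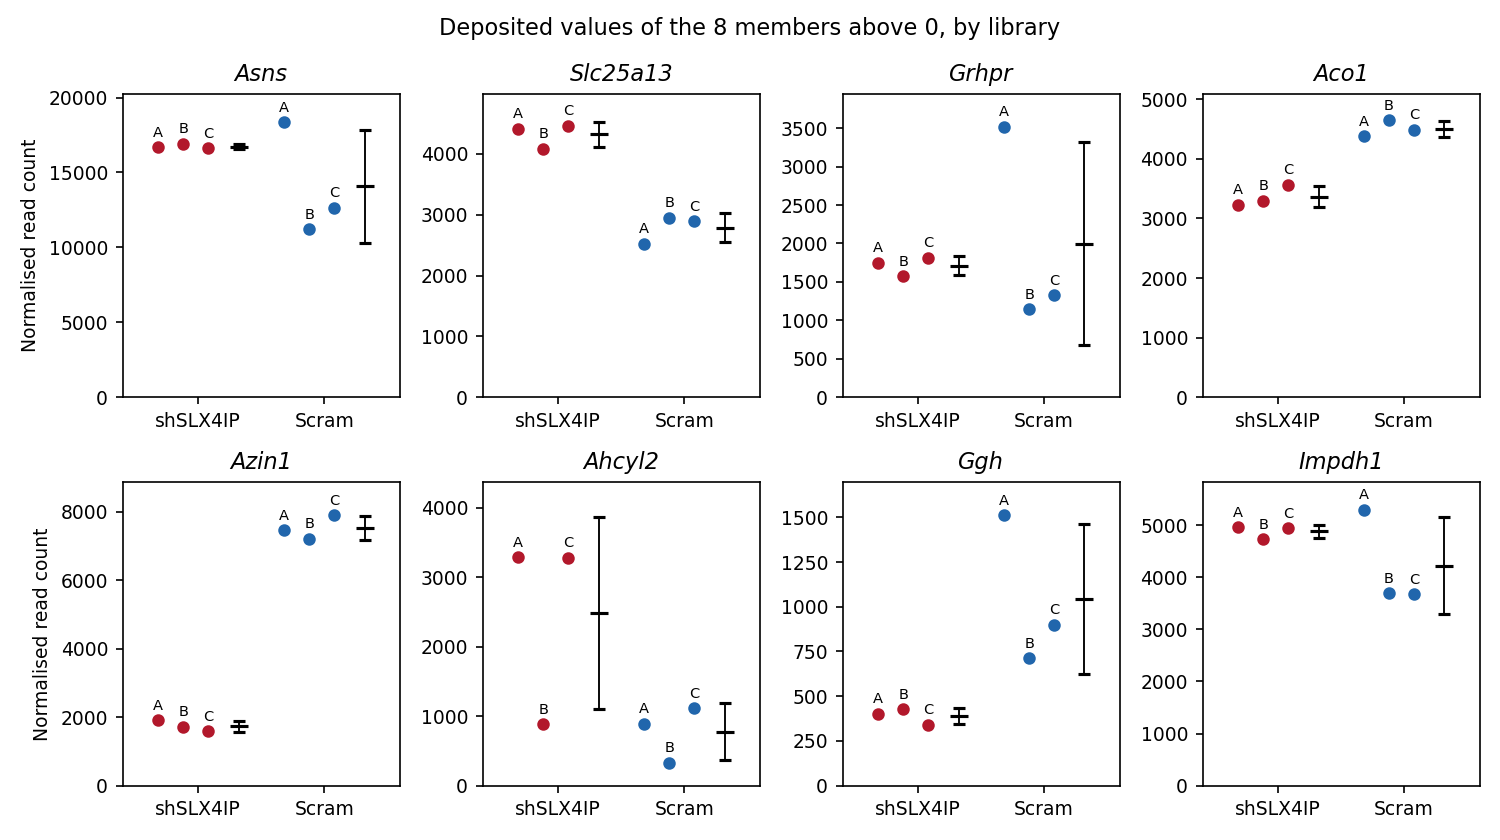
Deposited normalised read counts (vertical axis, from 0) of the 8 members above 0, with 1 point per library, shSLX4IP in red and Scram in blue, and the mean ± SD of each group (n = 3) in black. Azin1 lies between 1588 and 1907 in shSLX4IP and between 7217 and 7903 in Scram, while Asns, Grhpr and Impdh1 have Scram A above every shSLX4IP library.

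Azin1 (ENSMUSG00000037458.16) encodes antizyme inhibitor 1, a homologue of ornithine decarboxylase that lacks its enzyme activity and binds antizyme in its place. It lies on the minus strand of chromosome 15, from 38487427 to 38519266 of GRCm38, with 6256 exonic bases. Its normalised read count was 1907, 1725 and 1588 in shSLX4IP, against 7459, 7217 and 7903 in Scram. Every shSLX4IP library was low and every Scram library high, with a narrow spread in both groups on the deposited scale. The mean was 1740 ± 160 in shSLX4IP and 7527 ± 348 in Scram (SD, n = 3 each), 76.9% lower in shSLX4IP. The log2 fold change was -2.12 (SE 0.13, limma adjusted p = 0.000506), and 42 of the 431 nuclear features of the stretches had a lower one. Scram A was at 0.987 times the mean of Scram B and C, and without it the log2 fold change was -2.12 (adjusted p = 0.000318). In recovered reads Azin1 was at 2105, 1767 and 1995 in shSLX4IP and at 5094, 7726 and 8671 in Scram. There the Scram spread was wider, with Scram A the lowest, and the groups still did not overlap. Azin1 was called lower in 18 of 18 other settings, with log2 fold changes from -2.18 to -1.68. Its exons share 358 bases with the antisense gene Gm49077, listed at 144, 157 and 193 in shSLX4IP, against 92.3, 568 and 414 in Scram. Whether reads were counted by strand is not given, so reads from the shared bases cannot be told apart.

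Ggh (ENSMUSG00000073987.5, chromosome 4, 20042052 to 20066750, plus strand) encodes gamma-glutamyl hydrolase, the lysosomal enzyme that trims the glutamate tail from folates so that they can leave the cell. It was at 401, 427 and 340 in shSLX4IP, against 1513, 711 and 901 in Scram. The groups did not overlap, and Scram A was the highest of all, at 1.88 times the mean of the other Scram libraries. The mean was 389 ± 44.6 in shSLX4IP and 1041 ± 419 in Scram (SD, n = 3 each), with a log2 fold change of -1.35 (SE 0.31, limma adjusted p = 0.0316). Without Scram A it was -1.04 (adjusted p = 0.00664), and with a trend of value with exonic length removed it was -0.86 (adjusted p = 0.00543). The call was lost without Scram C (adjusted p = 0.0792) or without any 1 shSLX4IP library (0.0977 to 0.117), and with a block on the column letter (0.0827).

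Slc25a13 (ENSMUSG00000015112.16, chromosome 6, 6041218 to 6217173, minus strand) encodes citrin, the mitochondrial carrier that exchanges aspartate for glutamate and serves the malate-aspartate shuttle. It was at 4412, 4086 and 4462 in shSLX4IP, against 2526, 2954 and 2890 in Scram. All 3 shSLX4IP libraries were above all 3 Scram libraries, and Scram A was the lowest. The mean was 4320 ± 204 in shSLX4IP and 2790 ± 231 in Scram (SD, n = 3 each), 1.55 times as high, with a log2 fold change of 0.63 (SE 0.13, limma adjusted p = 0.0202). Without Scram A the log2 fold change was 0.56 (adjusted p = 0.00294). It stayed above 0 in 18 of 18 other settings (0.56 to 1.12), and was called in 12. The call was lost without Scram C (adjusted p = 0.0643), without any 1 shSLX4IP library (0.0769 to 0.0948), without the intensity trend (0.0859) and with a block on the column letter (0.107). After quantile normalization the log2 fold change was 1.12.

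Aco1 (ENSMUSG00000028405.10, chromosome 4, 40143081 to 40198338, plus strand) encodes cytosolic aconitase, which turns citrate into isocitrate and, without its iron-sulfur cluster, binds messages of iron metabolism. It was at 3228, 3298 and 3569 in shSLX4IP, against 4376, 4647 and 4489 in Scram. On the deposited scale the groups did not overlap, but the step between them was small. The mean was 3365 ± 180 in shSLX4IP and 4504 ± 137 in Scram (SD, n = 3 each), 25.3% lower in shSLX4IP, with a log2 fold change of -0.42 (SE 0.11, limma adjusted p = 0.0474). Without Scram A it was -0.44 (adjusted p = 0.00688). In recovered reads Aco1 was at 3563, 3378 and 4483 in shSLX4IP and at 2988, 4975 and 4925 in Scram. There the groups overlapped, with Scram A below every shSLX4IP library. Aco1 was called in 6 of 18 other settings and not in 12. After quantile normalization its log2 fold change turned to 0.10 (adjusted p = 0.722). The median over the nuclear features of the stretches was 0.10 in that setting, against -0.15 in the main test.

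Asns (ENSMUSG00000029752.13, chromosome 6, 7675169 to 7693254, minus strand) encodes asparagine synthetase, and its level was the highest of the members. Per 1000 exonic bases its normalised read count was 6117 in shSLX4IP and 5147 in Scram. It was at 16683, 16903 and 16602 in shSLX4IP, against 18363, 11215 and 12652 in Scram. The 3 shSLX4IP libraries lay close together, above Scram B and C and below Scram A, which was at 1.54 times the mean of the other Scram libraries. In recovered reads, without the deposited scaling, Asns was at 18416, 17314 and 20854 in shSLX4IP and at 12540, 12005 and 13881 in Scram. In these reads every shSLX4IP library was above every Scram library. edgeR on these reads rescales the libraries by factors of its own. Its log2 fold change was 0.27 and did not pass (adjusted p = 0.326). A test on reads scaled by library totals alone was not run. The mean deposited value was 16729 ± 156 in shSLX4IP and 14076 ± 3781 in Scram (SD, n = 3 each), a difference that did not pass (0.28 on the log2 scale, SE 0.20, limma adjusted p = 0.334). Without Scram A it passed, with a log2 fold change of 0.49 (adjusted p = 0.00470). It also passed with the length trend removed (0.63, adjusted p = 0.00372) and after quantile normalization (0.82, adjusted p = 0.00390), and in no other setting.

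The promoter of Asns is shown because the site that ATF4 uses in the human gene can be looked for in it, and that of Slc25a13 because it is the member that rose. Both are RefSeq sequences of GRCm38.p6, 300 bases around the start site, read on the strand of the gene. Capitals mark the amino acid response element in Asns and the E-box, the site of MYC-type and USF factors, in Slc25a13.
Asns, chr6:7693160-7693459, minus strand: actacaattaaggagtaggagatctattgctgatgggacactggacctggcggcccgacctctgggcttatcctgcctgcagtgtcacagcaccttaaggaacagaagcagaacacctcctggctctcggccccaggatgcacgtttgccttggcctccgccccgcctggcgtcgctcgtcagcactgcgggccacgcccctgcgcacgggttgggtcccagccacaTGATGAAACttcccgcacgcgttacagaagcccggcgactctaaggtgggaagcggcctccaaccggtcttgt
Slc25a13, chr6:6217124-6217423, minus strand: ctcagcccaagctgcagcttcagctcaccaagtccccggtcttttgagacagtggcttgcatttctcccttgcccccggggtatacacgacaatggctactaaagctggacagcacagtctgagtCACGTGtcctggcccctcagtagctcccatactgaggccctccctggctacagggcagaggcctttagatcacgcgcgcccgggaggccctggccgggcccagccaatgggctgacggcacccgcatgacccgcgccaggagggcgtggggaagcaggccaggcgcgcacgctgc
The Asns promoter held TGATGAAAC at -23 to -15 from the start site. The RefSeq promoters used held no sequence for Azin1 or Ggh, so these members were not searched, while the untested Aass and Aldh1b1 were. Searched on both strands, the pattern TGATGNAAN was in 1 of the 8 members with a RefSeq promoter, Asns, and in 3.95% of 32851 mouse promoters of the same length. The E-box CACGTG was in Slc25a13 alone of those 8, at -125 to -120 from the start site, and in 7.15% of all promoters. A match of letters is a description and shows no binding.

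Impdh1 (ENSMUSG00000003500.14, chromosome 6, 29200434 to 29216364, minus strand) encodes inosine monophosphate dehydrogenase 1, which catalyses the rate-limiting step towards guanine nucleotides. It was at 4965, 4735 and 4943 in shSLX4IP, against 5297, 3696 and 3670 in Scram. As for Asns, the shSLX4IP libraries were close to each other and Scram A was above them, with Scram B and C below. The mean was 4881 ± 127 in shSLX4IP and 4221 ± 932 in Scram (SD, n = 3 each), and the difference did not pass (0.23 on the log2 scale, SE 0.18, limma adjusted p = 0.371). It passed without Scram A (0.41, adjusted p = 0.00438), with the length trend removed (0.50, adjusted p = 0.00777) and after quantile normalization (0.78, adjusted p = 0.00453).

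Grhpr (ENSMUSG00000035637.15, chromosome 4, 44981395 to 44990734, plus strand) encodes glyoxylate and hydroxypyruvate reductase, which keeps glyoxylate from becoming oxalate. With 1603 exonic bases it is the shortest member. It was at 1747, 1570 and 1813 in shSLX4IP, against 3516, 1142 and 1328 in Scram. Scram A was 2.85 times the mean of Scram B and C, and the shSLX4IP libraries lay between it and them. The mean was 1710 ± 126 in shSLX4IP and 1995 ± 1320 in Scram (SD, n = 3 each; log2 difference -0.03, SE 0.44, limma adjusted p = 0.959). Without Scram A the sign turned and the difference passed, at 0.47 (adjusted p = 0.0227).

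Ahcyl2 (ENSMUSG00000029772.18, chromosome 6, 29768011 to 29912310, plus strand) encodes a homologue of S-adenosylhomocysteine hydrolase that binds the receptor for inositol trisphosphate. It was at 3288, 883 and 3284 in shSLX4IP, against 893, 331 and 1116 in Scram. Library B was low in both groups, so that shSLX4IP B lay among the Scram values. The mean was 2485 ± 1388 in shSLX4IP and 780 ± 405 in Scram (SD, n = 3 each), 3.19 times as high, and the log2 fold change of 1.62 did not pass (SE 0.70, limma adjusted p = 0.149). Of the 353 genes of the stretches with a mean of at least 100, Ahcyl2 was the only one at least 2-fold below both other libraries in the same letter of both groups, and this was seen after its values were known. It was 1.80 without Scram A (adjusted p = 0.141), 2.25 without shSLX4IP B (adjusted p = 0.0900) and 1.09 without Scram B (adjusted p = 0.261). It passed with DESeq2 on the recovered reads (1.67, adjusted p = 0.0221). With a block on the column letter it also passed (1.62, adjusted p = 0.0359). That block was chosen after seeing the data and takes up the low B libraries of this gene, so this pass is no separate evidence. Over all features tested, the deviations of same-lettered libraries correlated at -0.0213 to -0.000725. The RefSeq promoters give Ahcyl2 3 start sites, which a single row per gene does not separate, and its 18255 exonic bases are the union over annotated transcripts.

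Aass (ENSMUSG00000029695.14, chromosome 6, 23072173 to 23132986, minus strand), the synthase that begins lysine breakdown in mitochondria, was listed at 0 in all 6 libraries. Both neighbouring protein-coding genes, Ptprz1 and Fezf1, were listed at 0 as well. Aldh1b1 (ENSMUSG00000035561.6, chromosome 4, 45799022 to 45804604, plus strand), a mitochondrial aldehyde dehydrogenase, was also listed at 0 in all 6. Its neighbour Shb was at 1886, 1694 and 1740 in shSLX4IP and at 3960, 2057 and 2527 in Scram, while Igfbpl1 on the other side was listed at 0 in shSLX4IP and at 5.86, 13.1 and 14.6 in Scram. A listed 0 may be a failed estimate, and neither gene was tested.

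Per 1000 exonic bases, the 8 members above 0 ran in shSLX4IP from Asns (6117) through Impdh1 (1482), Slc25a13 (1137), Grhpr (1067), Aco1 (748), Azin1 (278) and Ggh (198) to Ahcyl2 (136). In this order the libraries of Slc25a13 and Grhpr overlapped, as did those of Ggh and Ahcyl2, and the other neighbours did not. In Scram the order was Asns (5147), Impdh1 (1281), Grhpr (1245), Azin1 (1203), Aco1 (1002), Slc25a13 (735), Ggh (530) and Ahcyl2 (42.7). There the libraries of Impdh1, Grhpr and Azin1 overlapped, as did those of Slc25a13 and Ggh. Grhpr spread from 713 to 2193 and so also overlapped Aco1, Slc25a13 and Ggh. On this scale Azin1 was below Aco1 in shSLX4IP and above it in Scram.

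**Figure D2:**
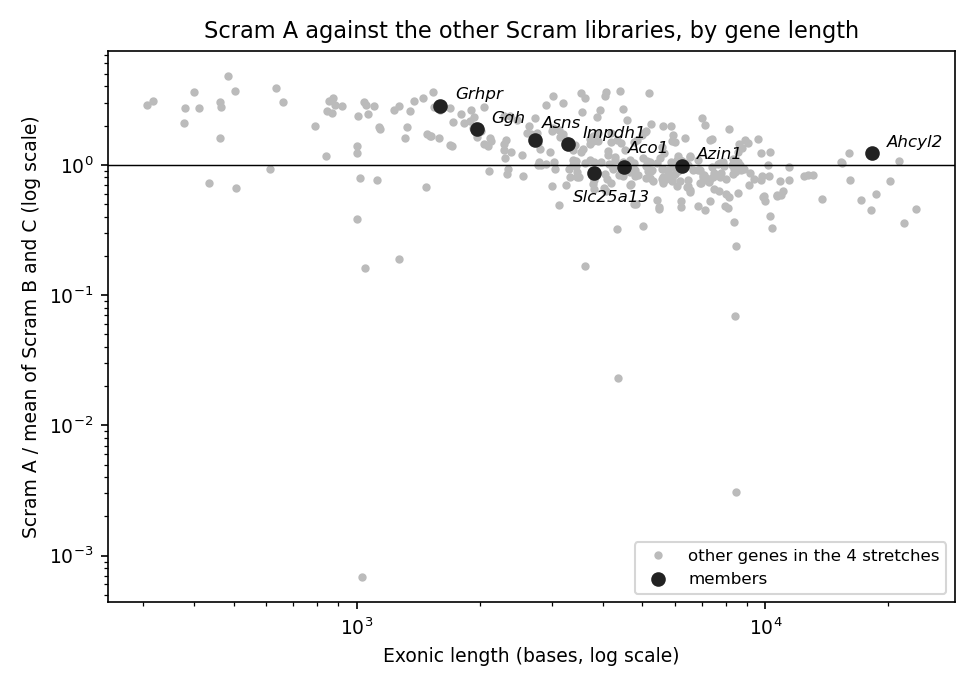
Value in Scram A divided by the mean of Scram B and C (log scale) against exonic length in bases (log scale) for 353 nuclear genes of the 4 stretches with a mean of at least 100, the 8 members in black. Ratios are higher at short lengths, with Grhpr (2.85) and Ggh (1.88) at the short end and Slc25a13 (0.865), Aco1 (0.958) and Azin1 (0.987) near 1.

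On the deposited scale, Scram A was the highest Scram library in 4 members, the 4 with the fewest exonic bases of the 8 tested. In recovered reads, which leave that scaling out, it stayed highest for Grhpr (2401, against 1223 and 1457) and Ggh (1033, against 761 and 988). It was not the highest for Asns (12540, against 12005 and 13881) or Impdh1 (3617, against 3957 and 4026). Scram A, B and C held 6110599, 6112569 and 6554748 reads. On the deposited scale 1 read counted as 1.46 in Scram A, 0.934 in Scram B and 0.9115 in Scram C. These are constants of a library, so the scaling raised the ratios below by nearly the same factor in every gene. Divided by the mean of the other Scram libraries, Scram A had a median ratio of 1.79 in the 118 genes with 306 to 3385 exonic bases, 0.986 in the 117 of middle length and 0.830 in the 118 with 5995 to 23395 bases. Grhpr, Ggh, Asns and Impdh1, with 1603, 1965, 2735 and 3294 bases, fall in the shortest set, and their ratios were 2.85, 1.88, 1.54 and 1.44. Slc25a13, Aco1 and Azin1, with 3798, 4496 and 6256 bases, were at 0.865, 0.958 and 0.987, and Ahcyl2 at 1.24. Slopes of a library's log2 deviation from the gene mean on log2 length, over the same 353 genes, were 0.177, 0.107 and 0.153 in shSLX4IP, against -0.392, 0.0453 and -0.0909 in Scram. Every shSLX4IP slope lay above every Scram slope, also without Scram A, so length moved with the groups. Removing the length trend in each library, with p-values adjusted over the 431 nuclear features, therefore also removes what the groups differ by along length. This setting also shifts the level of each library, since the whole fitted line is subtracted. The median log2 fold change of the nuclear features of the stretches was 0.07 in it, against -0.15 in the main test. The part of length in the group differences was not tested beyond the settings given next.

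The counts of members called in other settings are given here beside the shares of the stretches. Without Scram A, 4 members were higher (Asns, Slc25a13, Grhpr and Impdh1), against 31.5% of the nuclear features of the stretches, and 3 were lower, against 35.0%. With the length trend removed, 3 were higher (Asns, Slc25a13 and Impdh1; 33.9% in the stretches) and 3 lower (30.4%). After quantile normalization, 3 were higher (24.1%) and 2 lower (22.5%). With DESeq2 on recovered reads, 2 were higher (26.0%) and 3 lower (34.4%), and without the intensity trend 0 were higher (14.6%) and 2 lower (17.4%). Azin1 was the 1 member called without shSLX4IP A (9.58% of the stretches higher, 12.6% lower), without shSLX4IP B (9.09% and 12.6%), without shSLX4IP C (9.98% and 13.5%) and without Scram C (13.8% and 15.6%). Without Scram B, Slc25a13 was higher (20.1%), and Azin1 and Ggh were lower (22.2%). With the block on the column letter, Ahcyl2 was higher (8.12%) and Azin1 lower (10.4%).

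**Figure D3:**
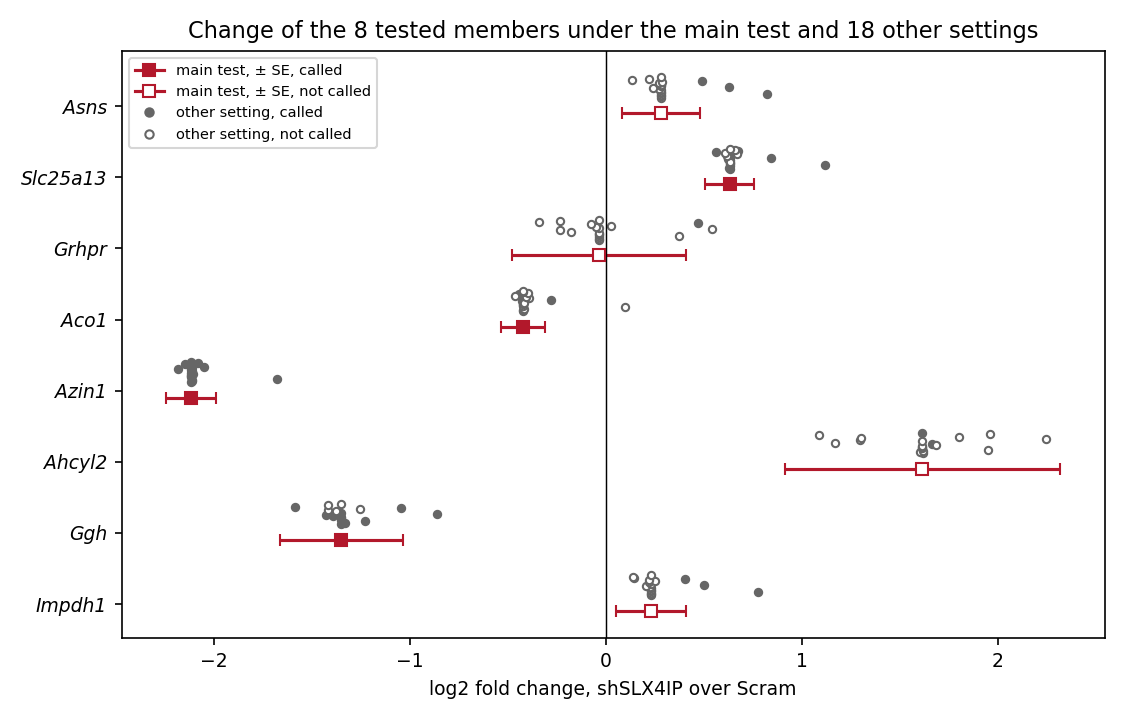
log2 fold change (shSLX4IP over Scram) of the 8 tested members in the main limma test (red squares, ± SE) and in 18 other settings (grey circles), filled where the adjusted p is under 0.05. Azin1 is filled throughout between -2.18 and -1.68, Grhpr crosses 0 and Ahcyl2 spreads from 1.09 to 2.25.

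**Figure D4:**
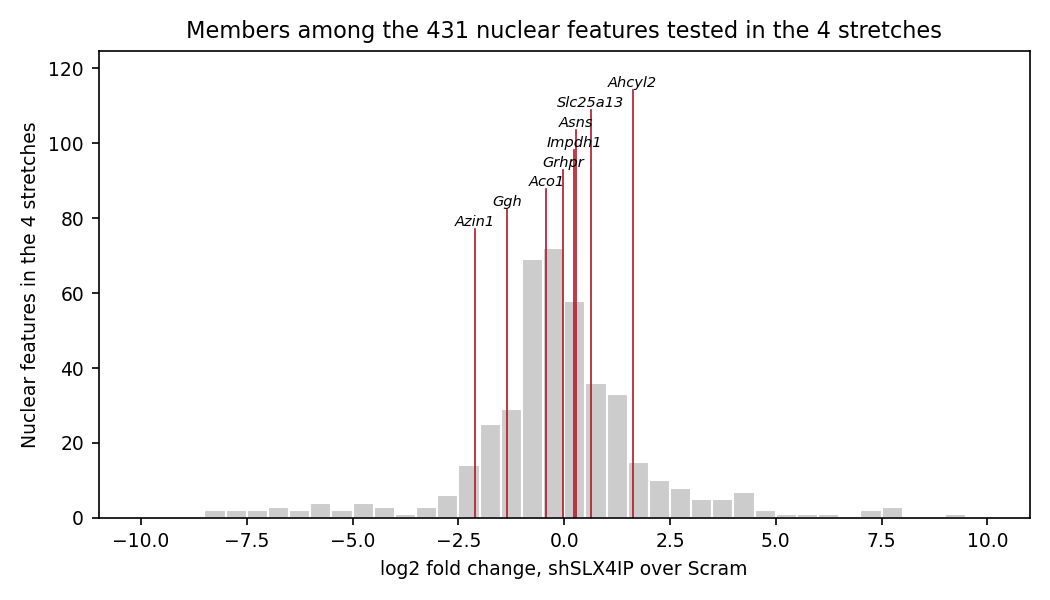
Number of nuclear features per bin of log2 fold change (shSLX4IP over Scram) among the 431 tested in the 4 stretches, with the 8 tested members as red lines. The members lie between -2.12 (Azin1) and 1.62 (Ahcyl2), inside a distribution with tails on both sides.

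Each member was also set beside the nuclear gene of the stretches whose log2 values followed it most closely over the 6 libraries, out of 330 genes with a mean of at least 50, predicted genes with Gm or Rik names left out. Pearson r compares the shape over libraries and not the size of the change. For Azin1 this was Otud6b (Pearson r = 0.999), a deubiquitinase gene on chromosome 4, at 1536, 1498 and 1453 in shSLX4IP and at 3500, 3461 and 3557 in Scram. For Slc25a13 it was Tmem67, a gene of the ciliary transition zone (r = 0.996), for Ggh the coactivator gene Sub1 (r = 0.992), and for Asns the ubiquitin-conjugating enzyme gene Ube2r2 (r = 0.996). For Aco1 it was the collectin gene Colec12 (r = 0.991), at 16.3, 25.4 and 50.2 in shSLX4IP and at 3128, 3469 and 3354 in Scram. Its log2 fold change was -6.86, against -0.42 for Aco1, so the sizes of the changes were far apart. Impdh1 was closest to Hilpda (r = 0.994), the next protein-coding gene on chromosome 6, at 773, 759 and 779 in shSLX4IP and at 1024, 353 and 368 in Scram. Grhpr was closest to the pseudogene Rpl27-ps3 (r = 0.978) and Ahcyl2 to the paraoxonase gene Pon3 (r = 0.910). These are descriptions over 6 libraries that share the group difference and Scram A.

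Other genes of these pathways were taken from 11 lists with 323 further genes, of which 10 lie in the stretches and 9 were tested. Of these 9, 3 were higher and 2 lower in shSLX4IP, beside 18.3% higher and 22.7% lower over the nuclear features of the stretches. The median log2 fold change was -0.02 over the 9. Tars, the cytosolic threonyl-tRNA synthetase, was at 2006, 2028 and 2298 in shSLX4IP, against 9750, 5843 and 6966 in Scram. It fell by 1.80 on the log2 scale (SE 0.22, limma adjusted p = 0.00390), was called in 18 of 18 other settings, and was at -1.60 without Scram A. The mitochondrial arginyl-tRNA synthetase Rars2 did not pass, at 1337 ± 110 in shSLX4IP and 1376 ± 330 in Scram (SD, n = 3 each; adjusted p = 0.951).

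Among nucleotide genes, Nadk2, the mitochondrial NAD kinase, rose to 1903 ± 27.5 in shSLX4IP, against 1075 ± 54.6 in Scram (SD, n = 3 each; log2 difference 0.82, SE 0.13, limma adjusted p = 0.00836). Its call was lost without shSLX4IP B (adjusted p = 0.0527) and with the block on the column letter (0.0756). Rrm2b, the ribonucleotide reductase subunit that supplies deoxynucleotides outside S phase, was at 953, 1102 and 1076 in shSLX4IP, against 313, 487 and 406 in Scram. It rose by 1.39 on the log2 scale (SE 0.21, adjusted p = 0.00843) and was called in 18 of 18 other settings. Its exons share 734 bases with the antisense gene Gm49085. The hydrolase gene Nudt2 was at 587 ± 59.3 in shSLX4IP and 1038 ± 628 in Scram (SD, n = 3 each). The mitochondrial nucleotide-binding gene Hint2 was at 576 ± 5.73 in shSLX4IP and 1138 ± 919 in Scram (SD, n = 3 each). Neither passed (adjusted p = 0.279 for Nudt2 and 0.379 for Hint2), and Scram A was 2.59 times the mean of Scram B and C for Nudt2 and 3.60 times for Hint2. The log2 fold change of Nudt2 was -0.67, and -0.21 without Scram A (adjusted p = 0.299), and that of Hint2 was -0.69, and -0.07 without Scram A (adjusted p = 0.724).

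On the list of lysine, branched chain and glyoxylate metabolism, the dipeptidase gene Pm20d2 was low and rose. It was at 59.8, 39.0 and 55.7 in shSLX4IP, against 23.4, 16.8 and 15.5 in Scram (log2 fold change 1.42, SE 0.38, limma adjusted p = 0.0460). Amacr is on the same list, although it encodes a racemase of branched-chain fatty acids and not an enzyme of amino acid breakdown. It fell to 187 ± 31.7 in shSLX4IP, against 440 ± 155 in Scram (SD, n = 3 each, log2 difference -1.19, SE 0.30, adjusted p = 0.0423). Without Scram A the log2 fold change was -0.92 for Amacr (adjusted p = 0.0134) and 1.59 for Pm20d2 (adjusted p = 0.0139). Pm20d2 was called in 8 of 17 other settings and Amacr in 10 of 18. Among the calls lost were those without any 1 shSLX4IP library (adjusted p = 0.103 to 0.163 for Pm20d2 and 0.0943 to 0.146 for Amacr) and without Scram B or C (0.0754 and 0.117 for Pm20d2, 0.0605 and 0.0650 for Amacr). The mitochondrial NAD carrier gene Slc25a51 was at 4116 ± 277 in shSLX4IP and 4030 ± 277 in Scram (SD, n = 3 each; adjusted p = 0.867) and passed in 1 other setting, quantile normalization (0.54, adjusted p = 0.0326). Agxt2, an aminotransferase of glyoxylate metabolism, was listed at 0 in all 6 libraries. Asns was the 1 gene in the stretches of the 36 on the list of asparagine and the amino acid response, and Tars and Rars2 the 2 of 39 aminoacyl-tRNA synthetases, so the direction of those pathways was not tested.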

How the data were processed

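RNA-seq covered 6 samples, 3 with shSLX4IP and 3 with Scram. Per the labels' protocols, 1 µg of RNA per sample went into a stranded mRNA library. Tools named in the submitters' processing notes are STAR 2.7.7, StringTie 2.1.7, fastp 0.19.5 and DESeq2 1.22.1, with the build GRCm38 (mm10). The sources used here do not give the annotation release, strand setting or filters. The deposited signal holds normalised counts made by the authors, each library scaled by a constant. Dividing by the value of a single read gave whole numbers, within 0.1, for 99.976% to 100% of values, and the tested members had 354 to 20854 such reads per library.

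Symbols, exonic lengths and positions come from GENCODE M21 (GRCm38), matched without version for 52094 of 53647 rows. Stretches were found by scoring protein-coding genes 3 for a mean of at least 1000 and -1 otherwise, keeping segments scoring at least 30. There were 4, and the highest other segment scored 18. limma 3.58.1 (R 4.3.3) tested log2(value + 1) with an intensity trend, 2-sided, for the 8127 features with a mean of at least 10, with Benjamini-Hochberg adjustment over all of them. Fold changes on that scale understate those of low genes. edgeR 4.0.16 and DESeq2 1.42.0 on recovered reads, other scalings, filters and left-out libraries were alternatives. Both of these count tests rescale the libraries by factors of their own. Named genes are all members, the pathway genes of the stretches and the closest profile of each member. The members, lists and rules were chosen with earlier results of these data known.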

Additional observations from a re-analysis of the deposited data

How the results depend on the processing

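Azin1 was called in all 18 other settings, Ggh in 13, Slc25a13 in 12 and Aco1 in 6. The count of members called higher was 3 after quantile normalization (24.1% of the nuclear features of the stretches) and 3 with the length trend removed (33.9%). It was 2 with DESeq2 (26.0%) and 0 without the intensity trend (14.6%), against 1 in the main test (18.3%). Leaving out 1 library gave 0 to 4 members higher and 1 to 3 lower, 1 to 3 pathway genes higher and 1 to 2 lower. The shares over the nuclear features of the stretches moved as well, from 9.09% to 31.5% higher and from 12.6% to 35.0% lower. Pathway genes called lower numbered 1 without the trend (17.4% of the nuclear features of the stretches) and 1 without a filter, for which no share was computed. In the main test they numbered 2 (22.7%). Signs turned for Grhpr (0.37 after quantile normalization, 0.54 with the length trend removed, 0.03 without shSLX4IP B, 0.47 without Scram A), Aco1 (0.10 after quantile normalization), Rars2 (0.32 after quantile normalization, 0.32 with the length trend removed, 0.04 without shSLX4IP B, 0.17 without Scram A), Nudt2 (0.18 with the length trend removed) and Slc25a51 (-0.011 without shSLX4IP B). Leaving out 1 library gave -0.34 to 0.47 for Grhpr, -0.12 to 0.17 for Rars2 and -0.011 to 0.087 for Slc25a51. The cause was not tested. The replicate numbers of the labels cannot be tied to the letters of the columns. A replicate block on the letter, chosen after seeing the data, left 1 member higher (Ahcyl2 in place of Slc25a13), 1 lower, 1 pathway gene higher and 1 lower. The shares over the nuclear features of the stretches were then 8.12% higher and 10.4% lower. The deviations of same-lettered libraries correlated at -0.0213 to -0.000725. Genes with few reads, such as Pm20d2, are limited by depth.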
